A study of Mus musculus with 12 samples.

Results

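The genes of the mammalian circadian clock were followed in polysomal (p) and non-polysomal (np) RNA of 3T3-L1 cells before and 6 h after hormonal induction of adipogenesis. 3T3-L1 is a mouse embryonic fibroblast line whose cells are preadipocytes. The 10 genes Per1, Per2, Per3, Cry1, Cry2, Arntl, Clock, Nr1d1, Nr1d2 and Dbp were chosen by name, and every array probe whose transcript accession belongs to one of them was taken. These were 17 of 41174 probes, and 10 of the 18217 genes that could be named on the array. Confluent cells were harvested without hormones (0 h) or after 6 h in 0.5 mM isobutylmethylxanthine (IBMX, which raises cAMP), 1 μM dexamethasone (a glucocorticoid) and 5 μg/ml insulin. The lysates were run on sucrose gradients. The np pool joined gradient fractions 5 to 7, and the p pool joined fractions 9 to 11. Each of the 4 groups (np 0 h, p 0 h, np 6 h, p 6 h) had 3 one-color arrays, 12 in all. The growth medium held newborn bovine serum and the induction medium fetal bovine serum, and no group was kept for 6 h without hormones, so hormones, medium change and elapsed time cannot be told apart. The hour of the day at harvest is not given in the sources used here.

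The clock is a feedback loop of transcription. Arntl (also called Bmal1) and Clock form a dimer that binds E-boxes and drives the Per, Cry, Nr1d and Dbp genes, Per and Cry proteins then inhibit the dimer, and the receptors Nr1d1 and Nr1d2 (Rev-erb alpha and beta) repress Arntl. Glucocorticoids, agents that raise cAMP and serum are known to reset this loop in cultured fibroblasts, in part through direct induction of Per1 and Per2.

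The loop acts through E-boxes and D-boxes, and letters that match these motifs were sought in the RefSeq promoters (GRCm38.p6). Of the 10 genes, 9 had a promoter entry, with 13 start sites in all, each entry running from 250 bases before the start to 49 bases after it. Per2 had none. Both strands were searched for the E-box CACGTG, the E′-box CACGTT, the D-box (TTATGTAA and its palindromic variant), the palindromic cAMP response element, its core TGACG (which the whole element contains), and the site TAGGTCA that Nr1d receptors bind. Stretches upstream of the start are given 5′ to 3′ on the strand of the gene, with E-boxes, E′-boxes and D-boxes in capitals, and AACGTG is the E′-box read on the other strand.
Per1, chr11:69098763-69098808, plus strand: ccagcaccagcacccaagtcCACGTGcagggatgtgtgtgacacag
Cry1, chr10:85185089-85185153, minus strand: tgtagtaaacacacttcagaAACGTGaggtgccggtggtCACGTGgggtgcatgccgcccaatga
Cry2, chr2:92434210-92434255, minus strand: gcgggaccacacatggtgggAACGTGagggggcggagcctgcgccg
Per3, chr4:151044796-151044890, minus strand: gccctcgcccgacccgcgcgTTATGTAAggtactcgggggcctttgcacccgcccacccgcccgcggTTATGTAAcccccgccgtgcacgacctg
Nr1d1, chr11:98775380-98775425, minus strand: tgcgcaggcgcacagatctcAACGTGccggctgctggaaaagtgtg

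The E-box began at -166 in Per1 and at -60 in Cry1, counted with the start base as 0, and 7.15% of all 32851 promoter entries held one. The E′-box lay at -79 in Cry1, at -166 in Cry2 and at -28 in Nr1d1, and 4.68% of all entries held one. Per3 had D-boxes at -205 and -158, a motif present in 1.06% of entries. The core of the cAMP response element was found in Per1 (2 start sites), Cry1 and Cry2, against 20.8% of all entries, and the whole element (1.79% of entries) in none of the members. The receptor site (2.61% of entries) was found in Arntl alone, at 30 bases past one of its starts. Clock, Nr1d2 and Dbp held none of these letters in this window. These matches describe the sequence only.

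All values below are log2 signals scaled to the spike-in RNA that was added to each sample, and a difference of 1 is a 2-fold difference. A probe was called where its adjusted p in the limma fit over all probes was below 0.05 and its difference was above 1 or below -1. Where a gene had several probes, the one well above background on most arrays, then the brightest, stands for the gene, and 9 of the 10 such probes were well above background on all 12 arrays (Per3 on 11). The arrays were alike in the share of spots well above background, from 55.7% to 60.8%, and no spot was saturated. The spike-in offset was between 0.05 and 0.17 on the other 9 arrays but -0.35, -0.48 and -0.21 on the p 6 h arrays, so the scaling matters for every comparison with that group. Under it the median of all probes was 0.54 for the polysomal change and 0.04 for the non-polysomal change. Markers of fibroblasts were above background in every group (9 of 9 genes), while the adipocyte markers Cfd and Lep were not (4 of 6 genes were), and 0 or 1 of 3 endothelial, 1 of 3 epithelial and 1 of 3 leukocyte genes were. All 3 muscle genes (Myod1, Des, Acta1) were above background too. The summed signal of the 9 fibroblast genes ranged from 184887 to 293320 on the np arrays and from 765049 to 1224570 on the p arrays, and the part of these levels in the results was not tested. Of 14 probes of 6 known glucocorticoid and cAMP targets, 13 rose in the polysomal pool (19.2% of all probes did) and 12 in the non-polysomal pool (8.09%), with polysomal changes of 4.53 for Fkbp5 and 5.94 for Nr4a1.

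At 6 h the clock genes had split into a group that was higher and a group that was lower, and each main probe had the same sign in both fractions. Per1, Per2, Cry1, Cry2, Arntl and Clock rose in the polysomal pool, from 3.15-fold (Cry2) to 12.5-fold (Per2). Dbp and Nr1d2 fell, by 6.23-fold and 4.19-fold. Of the 17 probes, 8 rose in the polysomal pool, against 19.2% of all probes, and 2 fell, against 5.01%. In the non-polysomal pool 6 rose, against 8.09% of all probes, and 4 fell, against 8.14%. The median over the 17 probes was 0.97 in the polysomal and 0.49 in the non-polysomal pool. In pooled RNA, fewer cells with a message and less message per cell cannot be told apart.

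**Figure D1:**
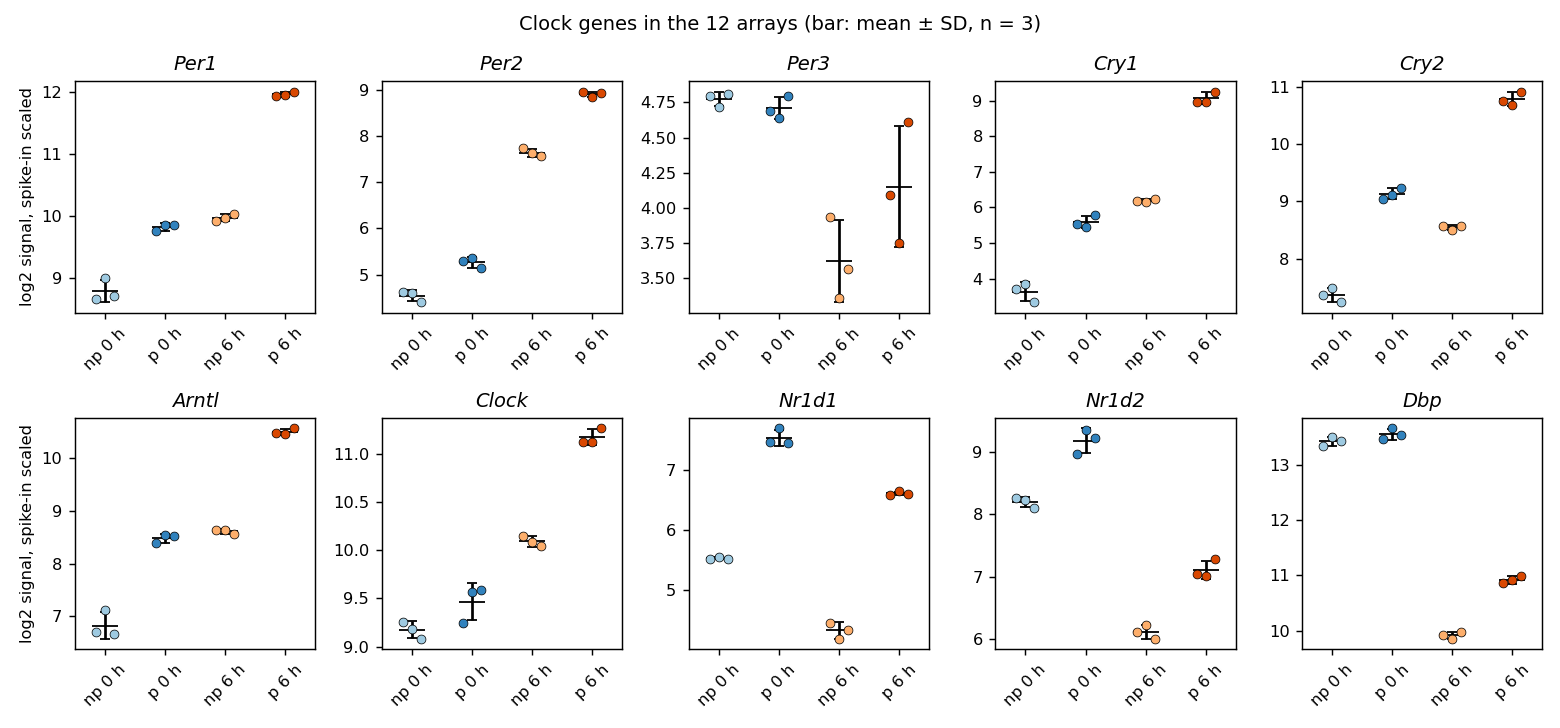
Log2 signal, scaled to the spike-ins, of 10 clock genes on each of the 12 arrays, with bars for mean ± SD of the 3 arrays per group and an axis of its own for each gene. In Per1, Per2, Cry1, Cry2, Arntl and Clock the p 6 h arrays lie above the p 0 h arrays. In Nr1d1, Nr1d2, Dbp and, narrowly, Per3 they lie below.

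Arntl, the partner of Clock in the activating dimer, was measured by 1 probe (NM_007489, chr7:113178471-113314126). Its log2 signals were 6.71, 7.12 and 6.66 in np 0 h, 8.39, 8.54 and 8.52 in p 0 h, 8.64, 8.65 and 8.56 in np 6 h, and 10.49, 10.46 and 10.57 in p 6 h. No array at 6 h overlapped with those of the same fraction at 0 h. Arntl thus rose by 2.02 ± 0.12 (SE, n = 3 per group, limma adjusted p = 2.12e-07) in the polysomal and by 1.79 ± 0.12 (adjusted p = 8.61e-07) in the non-polysomal pool.

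Clock, which encodes the other member of the dimer, has 3 probes (NM_007715, chr5:76209868-76305603). Its main probe read 9.26, 9.19 and 9.08 in np 0 h, 9.24, 9.57 and 9.59 in p 0 h, 10.15, 10.08 and 10.04 in np 6 h, and 11.12, 11.12 and 11.26 in p 6 h. The fractions overlapped at 0 h and were apart at 6 h. The polysomal pool rose by 1.70 ± 0.10 (adjusted p = 2.92e-07), whereas the non-polysomal difference of 0.92 ± 0.10 (adjusted p = 3.98e-05) stayed under the 2-fold limit. Probe 2 gave 1.83 and 0.95. Probe 3 was well above background on 7 arrays, all 6 non-polysomal ones but 1 of 3 in p 0 h and 0 of 3 in p 6 h. Its fitted difference between the pools at 0 h, -1.98 (adjusted p = 0.000623), therefore rests on polysomal signals mostly near background and is not read as a size. At 6 h the non-polysomal pool was at least 2.72-fold higher.

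Per1 and Per2 encode the inhibitors of the dimer that respond first to resetting signals. Per1 (NM_011065, chr11:69095108-69109965) read 8.66, 8.99 and 8.70 in np 0 h, 9.75, 9.85 and 9.86 in p 0 h, 9.92, 9.97 and 10.03 in np 6 h, and 11.93, 11.95 and 12.01 in p 6 h. Each fraction was higher at 6 h on every array. The rise was 2.14 ± 0.09 (adjusted p = 3.23e-08) in the polysomal and 1.19 ± 0.09 (adjusted p = 3.09e-06) in the non-polysomal pool.

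Per2 (NM_011066, chr1:91415977-91459351) had the largest polysomal rise of the 10 main probes. It read 4.62, 4.61 and 4.40 in np 0 h, 5.30, 5.37 and 5.14 in p 0 h, 7.73, 7.63 and 7.56 in np 6 h, and 8.95, 8.85 and 8.93 in p 6 h. The rise was 3.64 ± 0.09 (12.5-fold, adjusted p = 1.57e-09) on polysomes and 3.10 ± 0.09 (8.56-fold, adjusted p = 7.98e-09) off them, so that both pools moved far beyond the spread of the arrays. The second Per2 probe did not show this. It read 5.97, 5.94 and 5.78 in np 0 h, 5.50, 5.31 and 5.24 in p 0 h, 5.88, 5.59 and 5.66 in np 6 h, and 6.54, 6.21 and 6.15 in p 6 h. Its polysomal difference was 0.95 ± 0.13 (adjusted p = 0.00011) and its non-polysomal one -0.19 ± 0.13 (adjusted p = 0.311), with overlapping non-polysomal arrays. The place of each probe in its transcript was not used here.

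Per3, the third Period gene, went the other way. It read 4.80, 4.72 and 4.81 in np 0 h, 4.69, 4.64 and 4.79 in p 0 h, 3.94, 3.36 and 3.57 in np 6 h, and 4.09, 3.75 and 4.61 in p 6 h (NM_011067, chr4:150997018-151044707). The 6 h arrays were lower and more scattered, in the dim range of the array. The non-polysomal pool fell by 1.16 ± 0.20 (adjusted p = 0.00101). The polysomal difference was -0.56 ± 0.20 (adjusted p = 0.0375), under the 2-fold limit, and it was 0.03 in the log2 values the authors deposited.

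The cryptochromes, the other inhibitors of the dimer, both rose. Cry1 (NM_007771, chr10:85131700-85185054) read 3.70, 3.85 and 3.33 in np 0 h, 5.54, 5.45 and 5.77 in p 0 h, 6.19, 6.16 and 6.23 in np 6 h, and 8.98, 8.97 and 9.26 in p 6 h. The 4 groups were separate from each other. The polysomal pool rose by 3.48 ± 0.14 (11.2-fold, adjusted p = 2.26e-08) and the non-polysomal pool by 2.57 ± 0.14 (adjusted p = 3.2e-07). The np 0 h signals were dim, as the lowest signals well above background on those arrays were 2.94, 2.99 and 2.87. With another background correction (normexp) the non-polysomal change was -0.32, and the difference between the pools at 0 h was -0.62. Probe 2 gave a polysomal rise of 3.72 ± 0.24. In np 0 h it was not well above background on any array, and np 6 h was at least 2.46-fold and p 0 h at least 2.66-fold higher than that group. These bounds set the mean of the brighter group against the lowest signal well above background on each array of the dimmer group, or the probe's own signal where that was higher.

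Cry2 (NM_009963, chr2:92403646-92434085) rose in both pools. It read 7.37, 7.50 and 7.24 in np 0 h, 9.05, 9.11 and 9.24 in p 0 h, 8.57, 8.50 and 8.58 in np 6 h, and 10.75, 10.69 and 10.92 in p 6 h. The p 0 h arrays lay above the np 6 h arrays, unlike in Cry1. The rise was 1.66 ± 0.09 (adjusted p = 1.79e-07) on polysomes and 1.18 ± 0.09 (adjusted p = 3.24e-06) in the non-polysomal pool. Probe 2 was dim, well above background on 8 arrays, and differed by 0.91 ± 0.34 (adjusted p = 0.0374) and 0.23 ± 0.34 (adjusted p = 0.692).

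Nr1d2, a repressor of Arntl, fell in both fractions. It read 8.26, 8.23 and 8.10 in np 0 h, 8.96, 9.35 and 9.23 in p 0 h, 6.12, 6.24 and 6.01 in np 6 h, and 7.04, 7.01 and 7.28 in p 6 h (NM_011584, chr14:18204056-18239106). Every 6 h array was below every 0 h array. The differences were -2.07 ± 0.12 (adjusted p = 2.1e-07) and -2.08 ± 0.12 (adjusted p = 3.8e-07).

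For its paralog Nr1d1 (NM_145434, chr11:98767932-98775377) the 3 probes disagreed. The main probe read 5.52, 5.56 and 5.53 in np 0 h, 7.48, 7.70 and 7.45 in p 0 h, 4.46, 4.19 and 4.34 in np 6 h, and 6.59, 6.65 and 6.60 in p 6 h. The non-polysomal pool fell by 1.21 ± 0.09 (adjusted p = 2.32e-06), and the polysomal difference was -0.93 ± 0.09 (adjusted p = 1e-05), just short of the 2-fold limit. Probe 2 instead gave 0.90 ± 0.21 (adjusted p = 0.00432) in the polysomal and 0.07 ± 0.21 (adjusted p = 0.838) in the non-polysomal pool. Probe 3 gave 0.24 ± 0.13 (adjusted p = 0.143) and -0.22 ± 0.13 (adjusted p = 0.236). All 3 were well above background on all 12 arrays, so the direction for Nr1d1 depends on the probe.

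Dbp, a D-box activator and a direct output of the dimer, had the largest fall of the 10 main probes. Its log2 signals were 13.33, 13.51 and 13.42 in np 0 h, 13.46, 13.66 and 13.55 in p 0 h, 9.93, 9.85 and 9.97 in np 6 h, and 10.86, 10.91 and 10.99 in p 6 h (NM_016974, chr7:45705100-45710203). The fractions overlapped at 0 h, and at 6 h all arrays were far below. The non-polysomal pool fell by 3.51 ± 0.08 (adjusted p = 2.42e-09), lower than in all but 0.0899% of all probes, and the polysomal pool fell by 2.64 ± 0.08 (adjusted p = 4.25e-09).

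**Figure D2:**
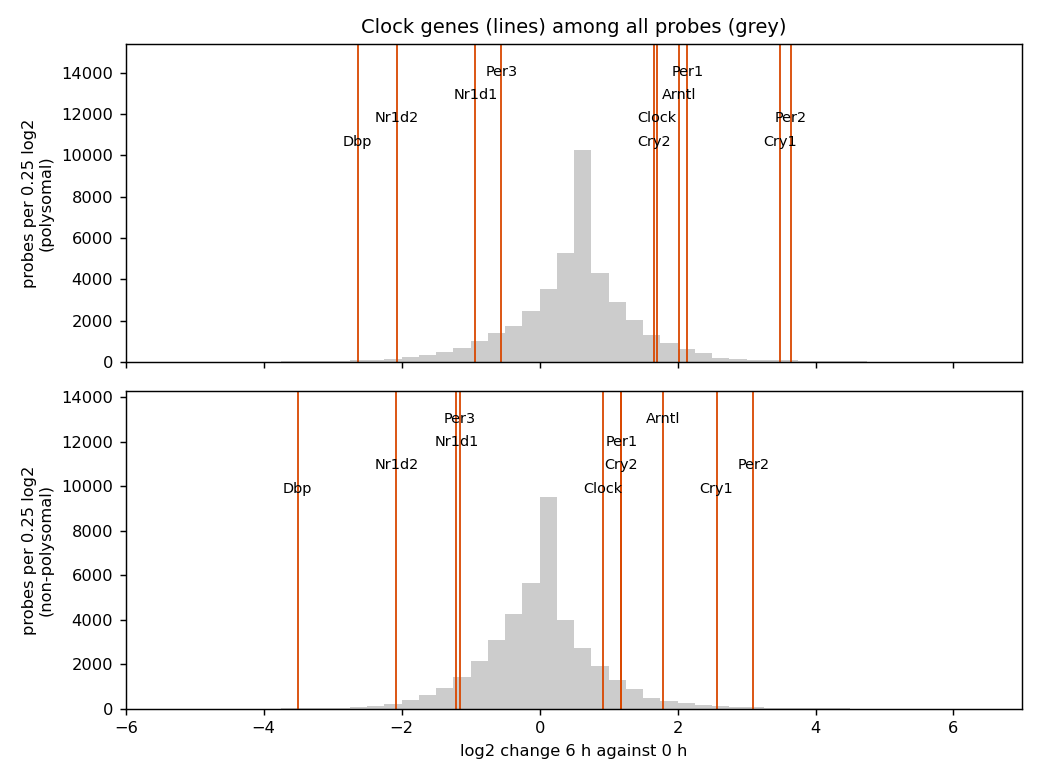
Number of probes per 0.25 log2 units of change from 0 h to 6 h (grey) in the polysomal (top) and non-polysomal pool (bottom), with lines at the main probes of the 10 clock genes. Per2 and Cry1 lie in the right tail and Dbp and Nr1d2 in the left tail of both distributions.

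Each slide carried 1 array of every group, so each difference was also read within a slide. The polysomal change on the 3 slides was 3.65, 3.48 and 3.79 for Per2, 3.44, 3.52 and 3.49 for Cry1, and -2.61, -2.75 and -2.56 for Dbp. All 10 main probes kept one sign on the 3 slides in both fractions. Per3 varied most, with -0.59, -0.89 and -0.18 in the polysomal pool.

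**Figure D3:**
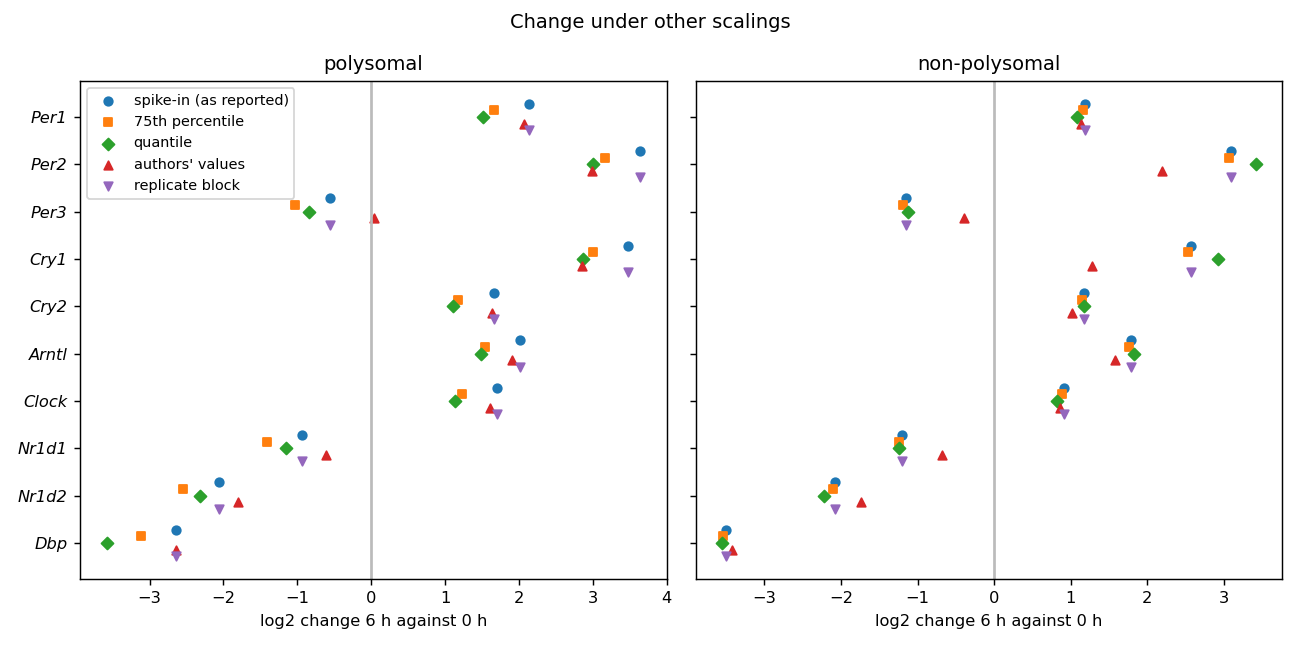
Log2 change from 0 h to 6 h of the main probe of each clock gene, polysomal (left) and non-polysomal (right), with the spike-in scaling of the report, 75th percentile scaling, quantile normalization, the log2 values deposited by the authors, and the replicate block. Only the polysomal change of Per3 lies on both sides of 0 among these 5 settings, at 0.03 in the authors' values.

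The changes with time did not hinge on the scaling for most genes, although it moved the median of all probes. With each array scaled to its 75th percentile that median was 0.06 instead of 0.54 in the polysomal pool. Per2 then rose by 3.17, Cry1 by 3.01 and Per1 by 1.67, and Dbp fell by 3.11 and Nr1d2 by 2.54. With this scaling 4 member probes instead of 2 fell in the polysomal pool, and 8 rose.

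The M-value, (p6 - np6) - (p0 - np0), asks whether the polysomal pool changed more than the non-polysomal pool. It was above 0 for all 10 main probes, from 0.01 ± 0.17 (Nr1d2, adjusted p = 0.966) to 0.96 ± 0.13 (Per1, adjusted p = 0.000379). None reached 1. The median of the 17 probes was 0.68 and that of all probes 0.49. Only the second Per2 probe was called, with 1.14 ± 0.18 (adjusted p = 0.000864), 1 of 17 against 12.1% of all probes above 1, and 0 of 17 were below -1 against 1.31%. Dbp stood at 0.87 ± 0.11 (adjusted p = 0.00029), since its message fell less on polysomes than off them, and Arntl at 0.23 ± 0.16 (adjusted p = 0.275). The sign depended on the scaling: with quantile normalization the M-value was -0.41 for Per2, -0.05 for Cry1, -0.06 for Cry2, -0.34 for Arntl, -0.09 for Nr1d2 and -0.03 for Dbp, and with 75th percentile scaling it was -0.21 for Arntl, -0.17 for Nr1d1 and -0.43 for Nr1d2.

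**Figure D4:**
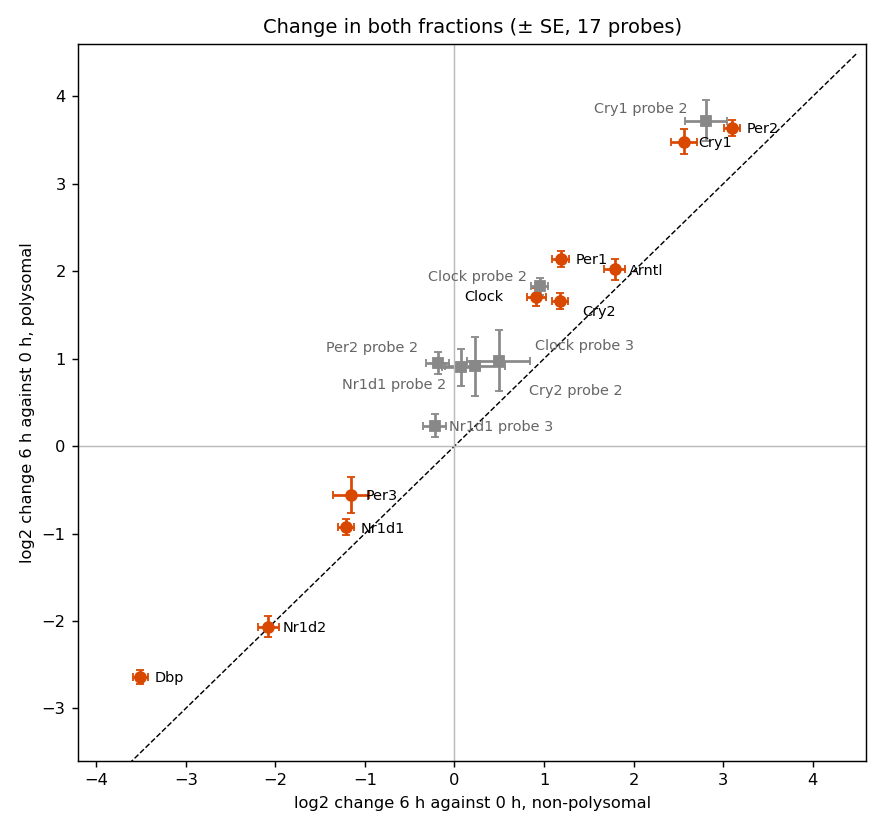
Log2 change from 0 h to 6 h in the non-polysomal pool (x) and the polysomal pool (y) for the 17 probes, ± SE, with main probes as orange circles, further probes as grey squares and a dashed line where both changes are equal. All 17 points lie on or above the line under spike-in scaling, and the second probes of Per2 and Nr1d1 lie away from the main ones.

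The pools were also compared with each other at each time. At 0 h the polysomal signal was higher by 2.01 ± 0.09 for Nr1d1, 1.97 ± 0.14 for Cry1, 1.76 ± 0.09 for Cry2, 1.66 ± 0.12 for Arntl and 1.03 ± 0.09 for Per1. The value for Nr1d1 is that of its main probe. Probes 2 and 3 of Nr1d1 gave -0.15 ± 0.21 (limma adjusted p = 0.64) and 0.38 ± 0.13 (adjusted p = 0.0305). Per3 (-0.07 ± 0.20, adjusted p = 0.836) and Dbp (0.14 ± 0.08, adjusted p = 0.209) did not pass the test. Of the 17 probes 6 were higher on polysomes at 0 h, against 27.4% of all probes, and 1 was lower, against 9.81%. At 6 h 11 were higher, against 37.4%, and 1 was lower, against 6.41%. The median of the 17 probes was 0.60 at 0 h and 1.24 at 6 h. All probes had medians of 0.15 and 0.68, and probes well above background on every array had 0.88 and 1.32. The medians of the 17 probes, dim ones included, were thus below those of probes with a clear signal. The main probes lay on both sides of these values, from -0.07 (Per3) to 2.01 (Nr1d1) at 0 h. At 6 h they ran from 0.53 (Per3) to 2.88 (Cry1). Whether the members differ from probes with a clear signal was not tested. At 6 h Cry1 had the largest difference of the main probes, 2.88 ± 0.14 (adjusted p = 2.09e-08), and Per3 the smallest, 0.53 ± 0.20 (adjusted p = 0.0403). These differences rest on the scaling: with 75th percentile scaling those at 6 h became -0.07 for Per2, -0.81 for Per3, -0.26 for Clock, -0.35 for Nr1d2 and -0.34 for Dbp, while Cry1 (1.54), Nr1d1 (0.95), Cry2 (0.90), Per1 (0.65) and Arntl (0.55) stayed higher on polysomes.

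**Figure D5:**
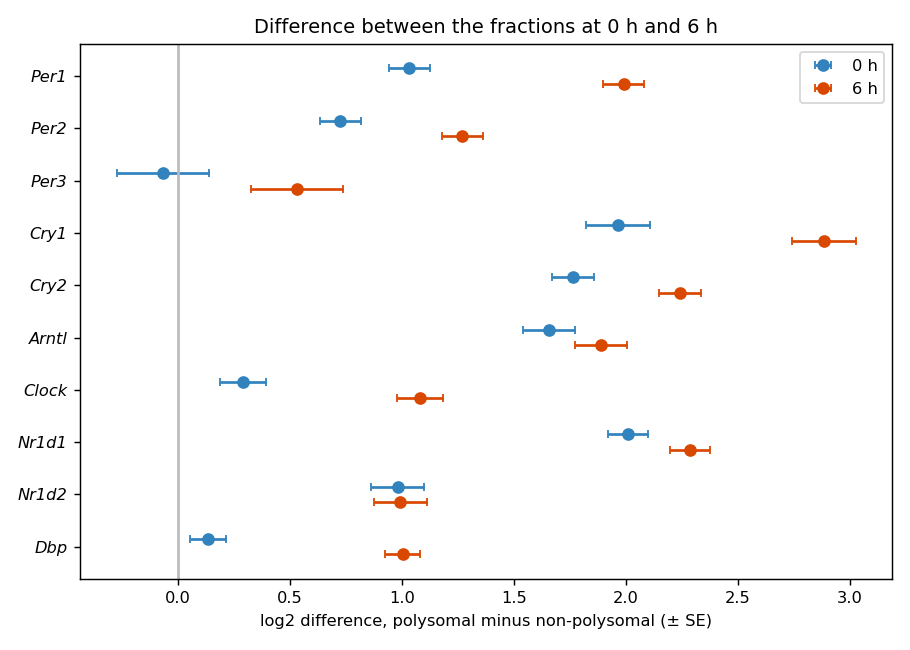
Log2 difference between the polysomal and the non-polysomal pool at 0 h (blue) and 6 h (orange) for the main probe of each clock gene, ± SE, with spike-in scaling. Cry1, Cry2, Arntl and Nr1d1 lie above 1.5 at both times, and Dbp and Clock move from 0.14 and 0.29 at 0 h to 1.00 and 1.08 at 6 h.

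Around these 10 genes, 25 further genes of the pathway were measured by 46 probes. In the polysomal pool 14 of the 46 rose, against 19.2% of all probes, and 3 fell, against 5.01%. In the non-polysomal pool 6 rose, against 8.09%, and 6 fell, against 8.14%. The medians were 0.40 and -0.04. Nfil3, which represses through the D-box that Dbp activates, rose by 3.96 ± 0.11 (adjusted p = 2.15e-09) on polysomes and by 3.03 ± 0.11 (adjusted p = 2.02e-08) off them. Ciart, a repressor of the Arntl and Clock dimer, rose by 2.51 and 1.51, and Bhlhe40, which competes for E-boxes, rose by 1.22 on polysomes. Hlf, a relative of Dbp, was called lower on polysomes (adjusted p = 0.0185), but it was not well above background in p 6 h, and p 0 h was at least 1.34-fold higher. The deubiquitinase Usp2 rose by 1.50 and 1.27, and Wdr5, a subunit of histone methyltransferases, by 2.09 and 1.22. The kinase Csnk1d, which phosphorylates Per proteins, and Fbxw11, a subunit of a ubiquitin ligase, rose on polysomes by 1.15 and 1.17. Fbxw11 had no value on the 0 h arrays of replicate 3. Its polysomal change was 1.55 on the slide of replicate 1 and 0.80 on that of replicate 2. Timeless fell by 1.23 on polysomes and was lower by 0.91 off them (limma adjusted p = 1.26e-05), under the 2-fold limit. Its probe 2 fell by 1.11 on polysomes and by 1.20 off them. Nono, an RNA-binding partner of Per, fell by 1.47 off polysomes but was higher by 0.39 on them (limma adjusted p = 0.00274). Its M-value was 1.86 (adjusted p = 5.01e-06). Npas2 (1.65 on polysomes) cleared the background on 0 arrays and Arntl2 (-1.07 off them) on 2, so these are not read as levels. For the M-value, 11 of the 46 were above 1, against 12.1% of all probes, and 0 below -1, against 1.31%.

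The genes whose 12 array values ran most like those of the 3 members with the widest spread between groups were sought among 14040 probes. For Cry1 these were Mcl1 (Pearson's r = 0.999), Ccdc134 and Tsku (0.998 each), for Per2 they were Il1rl1 (0.999), Errfi1 and Relt (0.998 each), and for Dbp they were Rab7b (0.999), Pcgf5 (0.998) and Gas1 (0.997). The 12 arrays form only 4 groups, and 17.2% of the probes exceeded 0.9 with Cry1, 8.13% with Per2 and 2.51% with Dbp. The share of probes at the higher values listed was not computed.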

How the data were processed

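RNA pools of 3T3-L1 cells were labelled with Cy3 and hybridised to 12 Agilent arrays. The deposited intensity per spot is the background-subtracted signal of Feature Extraction 10.7.1.1, and the authors also deposited log2 values normalized to the spike-ins, used here as an alternative. The intensity was taken to log2, outlier spots were left out (484 probe values missing), spots of a probe were averaged, and 1 offset per array, from 10 spike-in transcripts of 32 spots each, was subtracted. Of 41174 probes, 64.8% had a gene symbol through their accession (RefSeq, GRCm38.p6). One model of the 4 groups was fitted with limma 3.58.1 in R 4.3.3, and p-values were adjusted by Benjamini-Hochberg over all probes of each contrast. The model was also run on simulated arrays. These had independent noise and no slide or scaling effects, so they cannot bear on the spike-in scaling. The members, the gene lists and the rule for named genes (all member probes; other pathway genes whose main probe was called with time; the 3 genes most like each of 3 members) were chosen with earlier results of these data known. The methods name 3 biological replicates; the number of arrays limits the precision. The replicate number is also the slide. The normexp alternative used the median signal of each spot in place of the mean. One further pathway gene that this rule would name is not reported here.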

Additional observations from a re-analysis of the deposited data

Results flagged for a closer look

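The second Per2 probe was the one member probe whose change differed between the fractions by more than 2-fold: the test of the difference gave an M-value of 1.14 ± 0.18 (adjusted p = 0.000864, above 0 on 3 of 3 slides), with 0.95 in the polysomal and -0.19 in the non-polysomal pool, while the main Per2 probe gave 0.54 ± 0.13 (adjusted p = 0.00842). It was 1 of 17 probes, against 12.1% of all probes.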

How the results depend on the processing

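The rise of Per1, Per2, Cry1, Cry2, Arntl and Clock and the fall of Nr1d2 and Dbp in the polysomal pool kept their direction under every alternative run. The comparisons between fractions did not. Results are given as counts of the 17 member probes, then as log2 values of main probes; the cause of these shifts was not tested.

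Polysomal change above 1 (8): 5 with normexp. Below -1 (2): 4 with 75th percentile scaling, 3 with quantile normalization or the brighter spike-ins, 1 with normexp, 4 by adjusted p alone. Non-polysomal change above 1 (6): 0 with normexp, 3 without its spots of non-uniform background, 4 of 10 genes with the probes of a gene averaged (also 10 genes wherever averaged probes are given below). Below -1 (4): 2 in the authors' values, 1 with normexp, 2 without non-uniform background. M-value above 1 (1): 0 with 75th percentile, quantile, normexp, brighter spike-ins or averaged probes, 14 with a line through the spike-ins, 2 in the authors' values and without non-uniform background, 9 with the dimmer spike-ins, 8 by adjusted p alone. Fraction difference at 0 h above 1 (6): 3 with 75th percentile, quantile, the authors' values or without non-uniform background, 0 with normexp, 11 by adjusted p alone, and below -1 (1): 3 with 75th percentile, 2 with quantile, 0 in the authors' values, with normexp, without non-uniform background and with averaged probes, 2 by adjusted p alone. At 6 h above 1 (11): 2 with 75th percentile, 3 with quantile, 6 with the brighter spike-ins or averaged probes, and below -1 (1): 0 with the line, the authors' values, both normexp settings and averaged probes.

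Among values with an adjusted p below 0.05 in at least one of the settings compared, signs that turned with 75th percentile scaling were the difference at 0 h of Per2 (-0.17), Clock (-0.60) and Dbp (-0.76), that at 6 h of Per2 (-0.0692), Per3 (-0.81), Clock (-0.26), Nr1d2 (-0.35) and Dbp (-0.34), and the M-value of Nr1d2 (-0.43). With quantile normalization they were the M-value of Per2 (-0.41), Cry1 (-0.0472), Cry2 (-0.0583) and Dbp (-0.0311), the difference at 0 h of Clock (-0.63) and Dbp (-0.35), and that at 6 h of Per2 (-0.0176), Per3 (-0.0860), Clock (-0.31), Nr1d2 (-0.0189) and Dbp (-0.38). The M-values of Arntl and Nr1d1 with 75th percentile scaling, and of Arntl and Nr1d2 with quantile normalization, also turned negative but did not pass the test in either setting. The polysomal change of Per3 became 0.30 with the line, 0.0333 in the authors' values, 1.88 with normexp and 0.18 without non-uniform background. With normexp, the polysomal change of Nr1d1 became 0.78, the non-polysomal change of Cry1 -0.32, and the difference at 0 h -0.62 for Cry1 and -0.81 for Per2. With the probes of a gene averaged, the polysomal change of Nr1d1 became 0.0681 and the difference at 0 h of Clock -0.44. Other probes turned Per2 (probe 2: non-polysomal -0.19, 0 h -0.55), Clock (probe 3: 0 h -1.98, 6 h -1.50) and Nr1d1 (probe 2: polysomal 0.90, non-polysomal 0.0745, 0 h -0.15; probe 3: polysomal 0.24).

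Leaving out 1 array or 1 replicate number gave 8 to 11 and 2 to 2 probes (polysomal, above and below), 6 to 7 and 4 to 4 (non-polysomal), 1 to 3 and 0 to 0 (M-value), 5 to 7 and 1 to 1 (0 h), and 9 to 12 and 1 to 1 (6 h). The M-value count was 3 without the first np 0 h array, without replicate 1 and without replicate 3. The replicate block gave 8 probes above 1 and 2 below -1 in the polysomal pool and changed no call of a main probe. Arrays of the same number had deviations correlated from -0.0967 to 0.424 (median 0.0676). For arrays of different numbers the range was -0.379 to 0.208 (median -0.0376). The ranges overlapped, and the main fit did not take the number as a pairing. Normexp without spots of non-uniform background, and the offsets from the 5 dimmer or 5 brighter spike-ins, were chosen after seeing the data. On 3 arrays normexp correlated with the main values at only 0.744, 0.787 and 0.89. Depth in the dim range limits Per3, the main probe of Cry1 in np 0 h, and the weaker probes of Cry1, Cry2 and Clock.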
